A study of Homo sapiens with 8 samples.

Results

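The comparison described here sets BE2C cells given siRNA against KDM6B beside BE2C cells given a control siRNA, 48 h after transfection with 30 nM siRNA. It used the 2 arrays titled KDM6B siRNA and the 2 arrays titled siRNA control, 4 of the 8 arrays of the series. The members are all 17687 genes with a single symbol on the Clariom S array, each read through its brightest probe set, and values are log2 expression. The study asked what the histone demethylase KDM6B does in neuroblastoma, and BE2C is a clonal human neuroblastoma line with amplified MYCN. The other 4 arrays held BE2C cells given GSK-J4, an inhibitor of KDM6 enzymes, or 0.1% DMSO for 24 h, and they enter here through the estimate of the spread and 1 comparison at the end. The study's methods list several siRNA oligos against KDM6B and a non-targeting control, and the labels do not say which oligo either KDM6B siRNA array received. The labels call the replicates biological and say nothing more of their origin, so the p-values measure the spread between these arrays.

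Methylation of histone H3 at lysine 27 is written by the Polycomb complex PRC2 and accompanies gene silencing, and KDM6B erases it. Cells divide when cyclin-dependent kinases release E2F factors, which bind DNA together with a DP partner, from the RB family of pocket proteins, and free E2F then drives genes for DNA replication and for the next cyclins. Adrenergic neuroblastoma cells resemble sympathetic precursors, keep a circuit of lineage transcription factors such as HAND2 and GATA3, and make the enzymes of catecholamine synthesis.

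The arrays had a common scale, with siRNA array medians between 6.16 and 6.19, and on these 4 arrays between 13033 and 13362 genes exceeded the negative controls. Between the KDM6B siRNA arrays 906 genes were over 1 log2 unit apart, 68 of them over 2, against 3 genes in the control siRNA pair, and the SD of the replicate difference was 0.47, against 0.19. Each array is therefore given separately below, KDM6B siRNA replicate 1 before replicate 2. All 7 measured adrenergic markers lay above background on all 4 siRNA arrays. Of markers of other cell types, 4 of 5 mesenchymal, 2 of 2 Schwann cell and 1 of 2 immune genes also lay above background on all 4 arrays, as did 0 of 2 epithelial and 0 of 1 endothelial genes. The Schwann cell gene SOX10 read 7.76 and 7.71 on the KDM6B siRNA arrays, against 7.57 and 7.91 on the control siRNA arrays, so it did not separate the groups.

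KDM6B itself, on chromosome 17, read 7.22 and 5.76 on the KDM6B siRNA arrays, against 8.27 and 8.35 on the control siRNA arrays. Replicate 1 lay -1.09 from the control mean and replicate 2 lay -2.56 from it, so the transcript was lower on both arrays and lowest on the second. The log2 difference was -1.82 (SE 0.39), with an adjusted p of 0.0878 by limma that missed the threshold of 0.05. It was -2.56 without replicate 1 and -1.09 without replicate 2, where a single KDM6B siRNA array is left and its spread cannot be estimated. KDM6A, the related demethylase on the X chromosome, read 6.96 and 6.62 on the KDM6B siRNA arrays, against 6.88 and 6.71 on the control siRNA arrays, and the groups overlapped. Of the 10 measured genes that lie nearest to KDM6B on the chromosome, 5 on each side, 0 passed the test by limma (0.605% of all genes did). The next gene on one side, DNAH2, a dynein of cilia, read 5.41 and 5.24 on the KDM6B siRNA arrays, against 5.40 and 5.26 on the control siRNA arrays. TMEM88 on the other side read 7.94 and 7.32 on the KDM6B siRNA arrays, against 7.95 and 8.01 on the control siRNA arrays, and on replicate 2 it lay -0.66 from the control mean.

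**Figure D1:**
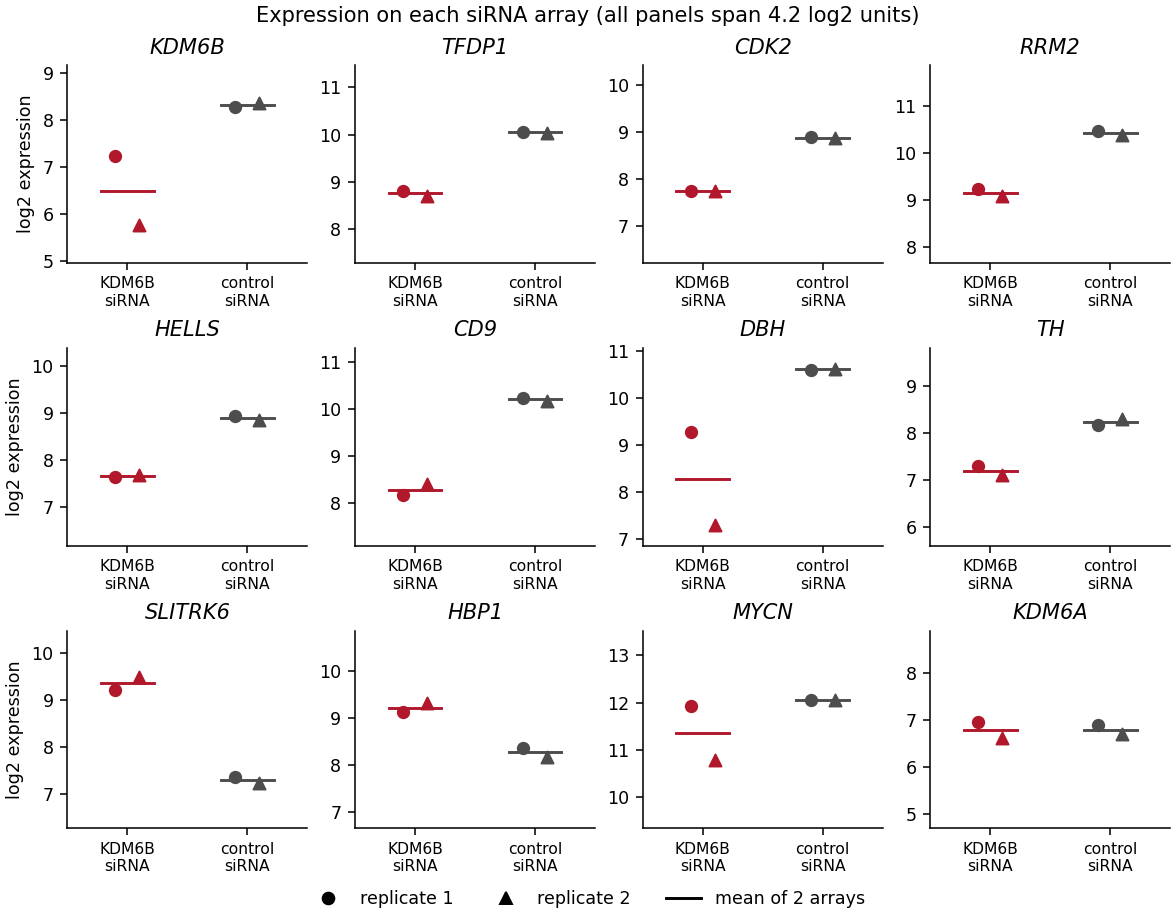
Log2 expression of 12 genes on each KDM6B siRNA array (red, left) and each control siRNA array (grey, right), with circles for replicate 1, triangles for replicate 2 and lines for the mean of 2 arrays. KDM6B and DBH are lower on both KDM6B siRNA arrays and lie 1.46 and 1.96 apart between them, whereas CDK2, RRM2, HELLS and CD9 differ by at most 0.24 between the KDM6B siRNA arrays.

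Falls outnumbered rises. In total 107 genes passed (0.605% of 17687), 87 lower (0.492%) and 20 higher (0.113%), by limma over all 8 arrays with Benjamini-Hochberg adjustment over all genes. The median difference over all genes was 0.01, which the common scale of the arrays sets near 0. Of the falls, 53 exceeded 1 log2 unit, and 6 of the rises did. On all 107 called genes both KDM6B siRNA arrays lay outside the range of the controls on the same side, as did 19.7% of all genes below and 22.2% above. Called genes had a median distance of 0.19 between the KDM6B siRNA arrays, against 0.23 over all genes, and the test itself favours genes whose replicates agree. These calls rest on a spread estimated over 4 groups. With the 4 siRNA arrays alone 0 genes passed by limma (lowest adjusted p = 0.369), 1527 had an unadjusted p below 0.05, and all 107 called genes were among those. That overlap is largely built in, since both fits use the same log2 differences. Fewer genes passed without a control siRNA, GSK-J4 or DMSO array and more without a KDM6B siRNA array, and each such fit leaves 1 array in a group. All 107 genes kept their direction, which was fixed because both KDM6B siRNA arrays lay beyond both controls.

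**Figure D2:**
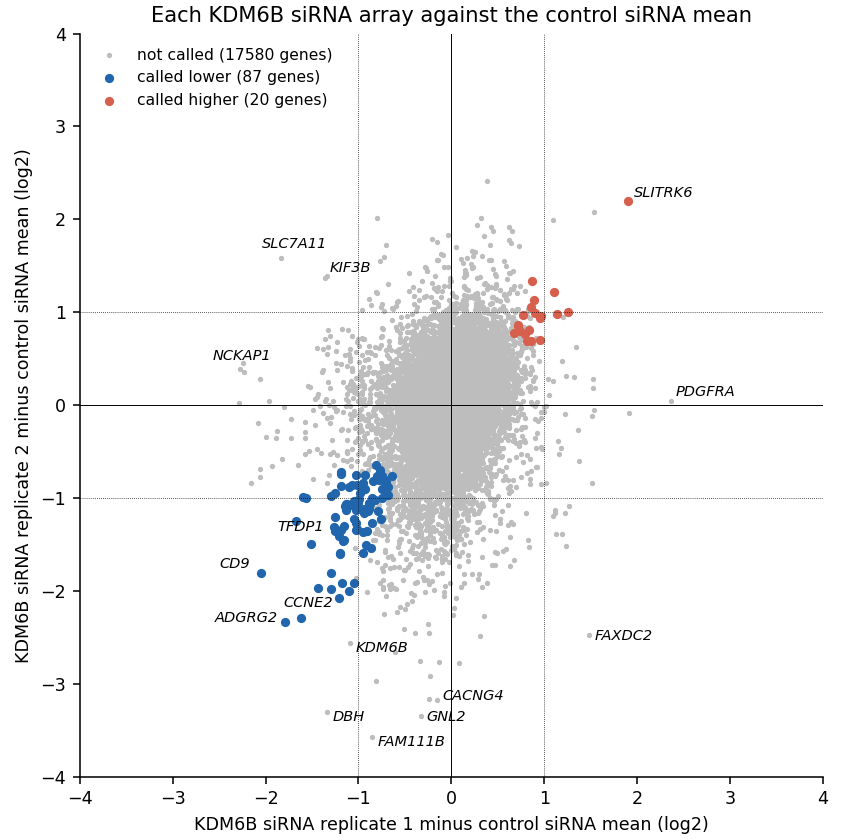
Each point is a gene, placed by its log2 value on KDM6B siRNA replicate 1 (horizontal) and on replicate 2 (vertical), each minus the mean of the 2 control siRNA arrays, which both axes share. Dotted lines mark 1 log2 unit. The 87 genes called lower (blue) and 20 called higher (orange) lie near the diagonal, and KDM6B, DBH, GNL2 and FAXDC2 lie far below it.

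TFDP1, a DP partner of E2F proteins, read 8.80 and 8.69 on the KDM6B siRNA arrays, against 10.06 and 10.04 on the control siRNA arrays, and it fell by 1.30 (SE 0.11, adjusted p = 0.0111). It was 1 of 10 E2F and DP genes to pass, where 0.492% of all genes fell, and 0 rose. The list had a median of -0.40, with -0.46 on replicate 1 and -0.44 on replicate 2. Single members differed between the arrays, and 1 and 3 of the 10 lay more than 1 below the control mean. RNA was taken from whole cultures, so fewer cycling cells and less transcript in each cell cannot be told apart. E2F8, a repressor of the family that is itself an E2F target, read 6.29 and 5.05 on the KDM6B siRNA arrays, against 7.31 and 6.73 on the control siRNA arrays (difference -1.35, adjusted p = 0.145). E2F7, its close relative, read 7.09 and 6.25 on the KDM6B siRNA arrays, against 7.63 and 7.59 on the control siRNA arrays (adjusted p = 0.135). For both genes replicate 2 lay lower than replicate 1, and neither passed. E2F1, the activator best known for S phase entry, read 7.11 and 6.94 on the KDM6B siRNA arrays, against 7.45 and 7.38 on the control siRNA arrays, and E2F2 read 6.07 and 5.89 on the KDM6B siRNA arrays, against 6.44 and 6.36 on the control siRNA arrays. E2F3 read 6.17 and 6.73 on the KDM6B siRNA arrays, against 7.04 and 6.77 on the control siRNA arrays, with the second array just under the controls. All 5 of these E2F genes had both KDM6B siRNA arrays below both controls, as did E2F4 and TFDP1. In the list 7 of 10 members lay so, where 19.7% of all genes did. E2F4 (8.82 and 8.50 with KDM6B siRNA, against 8.88 and 8.97 with control siRNA), E2F5 (7.34 and 8.003 with KDM6B siRNA, against 7.80 and 7.69 with control siRNA), E2F6 (5.17 and 6.29 with KDM6B siRNA, against 5.72 and 6.14 with control siRNA) and TFDP2 (8.48 and 8.38 with KDM6B siRNA, against 8.57 and 8.37 with control siRNA) did not pass either (adjusted p from 0.49 to 0.912).

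Of 13 G1 cyclins and kinases 3 fell and 0 rose, where 0.492% of all genes fell. CCNE2, which encodes cyclin E2, a partner of CDK2 at the start of S phase, read 6.81 and 5.95 on the KDM6B siRNA arrays, against 8.03 and 8.02 on the control siRNA arrays, a fall of 1.64 (SE 0.24, adjusted p = 0.0357). CDK2 itself read 7.74 and 7.75 on the KDM6B siRNA arrays, against 8.89 and 8.86 on the control siRNA arrays, a fall of 1.13 with KDM6B siRNA arrays that differed by 0.0028 (adjusted p = 0.0187). CDC25A, the phosphatase that activates CDK2, read 6.22 and 6.25 on the KDM6B siRNA arrays, against 7.15 and 7.16 on the control siRNA arrays (adjusted p = 0.0224). The cyclin D side stood apart from these. CDK4 read 11.04 and 10.71 on the KDM6B siRNA arrays, against 10.96 and 11.03 on the control siRNA arrays. CDK6 read 9.16 and 8.43 on the KDM6B siRNA arrays, against 8.99 and 9.07 on the control siRNA arrays. CCND1, cyclin D1, read 11.70 and 10.89 on the KDM6B siRNA arrays, against 11.53 and 11.57 on the control siRNA arrays, and in all 3 genes replicate 1 lay above both controls and replicate 2 below them. RB1, the pocket protein gene, read 9.61 and 9.85 on the KDM6B siRNA arrays, against 9.94 and 9.78 on the control siRNA arrays, and 0 of 10 pocket protein, MuvB and B-MYB genes passed by limma. Among 6 CDK inhibitors 0 passed as well, with CDKN1A (p21) at 5.82 and 5.31 with KDM6B siRNA, against 6.35 and 6.57 with control siRNA, and CDKN1B (p27) at 9.26 and 9.18 with KDM6B siRNA, against 8.98 and 8.98 with control siRNA, the first lower and the second higher on both arrays.

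The lists of DNA replication genes had medians below 0, lower on replicate 2 than on replicate 1. Of 28 genes of the replication fork and polymerases 4 fell and 0 rose, beside the 0.492% of all genes that fell. CLSPN, the checkpoint adaptor claspin that travels with the fork, read 6.60 and 5.71 on the KDM6B siRNA arrays, against 7.66 and 7.75 on the control siRNA arrays, a fall of 1.55 (SE 0.25, adjusted p = 0.0485). PCNA, the sliding clamp, read 9.90 and 9.43 on the KDM6B siRNA arrays, against 10.72 and 10.59 on the control siRNA arrays (fall of 0.995, adjusted p = 0.0485). POLE2, a subunit of polymerase epsilon, fell by 0.96 and RFC2, a subunit of the clamp loader, by 0.73 (adjusted p = 0.0413 and 0.0478). The list had a median of -0.61, with -0.37 on replicate 1 and -0.76 on replicate 2, and 18 of 28 members had both arrays below both controls (19.7% of all genes). Of 26 genes of origin licensing and firing CDC7, a kinase that fires origins, was the 1 that fell (6.89 and 7.50 on the KDM6B siRNA arrays, against 8.59 and 8.38 on the control siRNA arrays, adjusted p = 0.0402), and it was lower on replicate 1 than on replicate 2. The list's median was -0.63 (-0.32 on replicate 1, -0.86 on replicate 2), and 19 of 26 had both arrays below both controls (19.7% of all genes). Among 11 genes of nucleotide supply RRM2, the regulated subunit of ribonucleotide reductase, read 9.23 and 9.07 on the KDM6B siRNA arrays, against 10.46 and 10.38 on the control siRNA arrays and fell by 1.26 (SE 0.12, adjusted p = 0.0113). In that list 10 of 11 genes had both arrays below both controls (19.7% of all genes), and the median was -0.64.

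Members that missed the threshold show how the arrays differed (these genes were chosen after their values were seen). CDC45, part of the replicative helicase, read 8.29 and 7.20 on the KDM6B siRNA arrays, against 8.96 and 8.94 on the control siRNA arrays (adjusted p = 0.121). TYMS, which makes thymidylate, read 8.95 and 7.95 on the KDM6B siRNA arrays, against 9.68 and 9.65 on the control siRNA arrays (adjusted p = 0.0983). MCM2, a helicase subunit, read 8.35 and 7.57 on the KDM6B siRNA arrays, against 8.75 and 8.78 on the control siRNA arrays (adjusted p = 0.158). For each of these genes both arrays were below both controls and replicate 2 was clearly the lower. More than 1 log2 unit below the control mean lay 1 of 26 origin genes on replicate 1 and 10 of 26 on replicate 2, where 1.03% and 3.23% of all genes lay as far down.

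E2F sites are a known feature of promoters of this kind, and the promoters of genes that fell are shown for that reason. RefSeq promoter windows of 300 bases (GRCh38.p14, 250 bases before to 50 after the first listed start of a gene) matched 14250 of the 17687 genes. They were searched on both strands for the E2F letters TTTCCCGC, TTTGGCGC, TTTCGCGC and TTTGCCGC. A match was found in 633 of all 14250 windows (4.44%), in 11 of 22 origin genes (50%), in 9 of 23 fork genes (39.1%), in 4 of 8 E2F and DP genes (50%), in 6 of 71 genes that fell (8.45%) and in 0 of 16 that rose. The 6 windows of genes that fell are given 5′ to 3′ on the strand of the gene, with 30 bases on each side of the outermost match, with the matched letters in capitals.
TFDP1 (chr13:113584603-113584670, + strand): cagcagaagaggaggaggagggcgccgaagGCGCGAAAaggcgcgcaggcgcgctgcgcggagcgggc
CLSPN (chr1:35769946-35770013, - strand): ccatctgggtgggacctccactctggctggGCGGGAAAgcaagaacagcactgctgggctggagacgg
CDC25A (chr3:48188424-48188491, - strand): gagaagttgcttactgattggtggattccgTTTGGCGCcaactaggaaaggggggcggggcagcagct
HELLS (chr10:94545682-94545817, + strand): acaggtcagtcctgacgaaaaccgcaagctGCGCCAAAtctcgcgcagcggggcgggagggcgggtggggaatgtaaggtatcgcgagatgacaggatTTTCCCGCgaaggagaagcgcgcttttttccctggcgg
PCNA (chr20:5126644-5126711, - strand): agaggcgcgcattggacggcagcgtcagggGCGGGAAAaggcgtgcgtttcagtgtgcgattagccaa
POLE2 (chr14:49688182-49688249, - strand): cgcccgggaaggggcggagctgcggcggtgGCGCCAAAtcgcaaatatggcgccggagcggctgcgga
Counted from the start site, the matches began at -5 in CLSPN and POLE2, -44 in CDC25A, -59 in PCNA and -120 in TFDP1, and at -76 and -8 in HELLS. A match is a description of the letters and shows no binding.

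Among genes of mitosis the calls were few, beside the 0.492% of all genes that fell. Only GTSE1, a microtubule-binding protein of G2 and M phase, passed among 41 genes of mitotic entry and the spindle (7.50 and 7.31 with KDM6B siRNA, against 8.16 and 8.22 with control siRNA, a fall of 0.78, adjusted p = 0.0446), and 35 of 41 had both arrays below both controls (19.7% of all genes) and 0 both above. The list's median was -0.58, with -0.30 on replicate 1 and -0.87 on replicate 2, and 0 and 17 of 41 members lay more than 1 below the control mean. The mitotic cyclin gene CCNB1 read 9.34 and 8.72 on the KDM6B siRNA arrays, against 9.81 and 9.74 on the control siRNA arrays (adjusted p = 0.128). AURKB, a kinase of chromosome segregation, read 8.45 and 7.54 on the KDM6B siRNA arrays, against 9.01 and 9.03 on the control siRNA arrays (adjusted p = 0.123). FOXM1, the transcription factor of G2 genes, read 9.35 and 8.99 on the KDM6B siRNA arrays, against 9.99 and 9.90 on the control siRNA arrays (adjusted p = 0.0655). These genes were chosen after their values were seen, and in each of them the second array was the lower. In their promoters the CHR letters TTTGAA, searched on both strands, occurred in 25 of 35 windows (71.4%) of this list, against 1712 of 14250 (12%) of all windows and 5 of 71 (7.04%) of genes that fell. The CCAAT letters, also on both strands, occurred in 27 of 35 (77.1%), against 36.4% of all windows.

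Of 14 genes of DNA methylation and histone chaperones 2 fell, where 0.492% of all genes fell. HELLS, a remodeller required for DNA methylation, read 7.64 and 7.69 on the KDM6B siRNA arrays, against 8.94 and 8.85 on the control siRNA arrays, a fall of 1.23 (SE 0.12, adjusted p = 0.0113). CHAF1B, a subunit of the chaperone that loads histones behind the fork, read 7.96 and 7.74 on the KDM6B siRNA arrays, against 8.98 and 8.81 on the control siRNA arrays (fall of 1.05, adjusted p = 0.0278). For both genes the KDM6B siRNA arrays were close to each other. The list as a whole differed between arrays, with medians of -0.21 on replicate 1 and -0.64 on replicate 2, and 1 and 6 of 14 members more than 1 below the control mean. Both arrays were below both controls for 12 of 14 (19.7% of all genes). ESCO2, which acetylates cohesin in S phase, read 7.81 and 7.37 on the KDM6B siRNA arrays, against 8.67 and 8.78 on the control siRNA arrays (fall of 1.13, adjusted p = 0.0444) and was the only 1 of 14 CTCF and cohesin genes to pass. Checkpoint and homologous recombination genes had 0 of 21 past the threshold by limma (median -0.43). Outside the lists, and named after their values were seen, 5 more genes of these processes fell. The log2 differences were -1.10 for CENPW, -0.93 for DSN1 and -1.0002 for KNTC1, genes of the centromere and kinetochore, -0.76 for DSCC1, part of a clamp loader, and -0.75 for USP1, a deubiquitinase of DNA repair (adjusted p from 0.0226 to 0.0413).

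**Figure D3:**
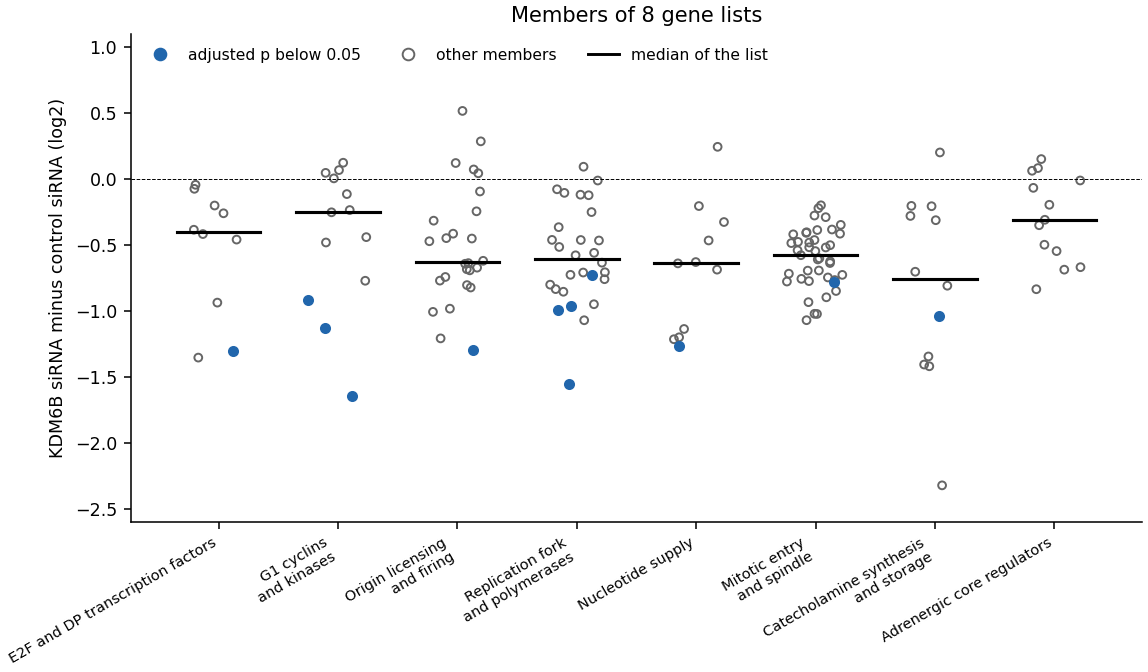
KDM6B siRNA minus control siRNA (log2, vertical) for each measured member of 8 gene lists, with filled blue points for genes at an adjusted p below 0.05, open points for the others and a black line at each list's median. The medians of the replication and mitosis lists lie between -0.64 and -0.58, and most of their members miss the threshold.

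Of the 39 lists, the catecholamine genes had the widest gap between the medians of the arrays. TH, which catalyses the limiting step from tyrosine, read 7.30 and 7.11 on the KDM6B siRNA arrays, against 8.18 and 8.31 on the control siRNA arrays. It alone of 12 genes passed (fall of 1.04, SE 0.13, adjusted p = 0.0196), where 0.492% of all genes fell. DBH, which makes noradrenaline from dopamine, read 9.28 and 7.32 on the KDM6B siRNA arrays, against 10.61 and 10.63 on the control siRNA arrays. It was -1.34 from the control mean on replicate 1 and -3.30 on replicate 2, a difference of -2.32 that missed the threshold (adjusted p = 0.0891). DDC, the decarboxylase between them, read 8.40 and 6.77 on the KDM6B siRNA arrays, against 8.9996 and 8.98 on the control siRNA arrays (adjusted p = 0.182). SLC18A1, the vesicular transporter, read 8.30 and 6.61 on the KDM6B siRNA arrays, against 8.77 and 8.83 on the control siRNA arrays (adjusted p = 0.213). The list's median was -0.36 on replicate 1 and -1.21 on replicate 2, and 1 and 8 of its 12 genes lay more than 1 below the control mean. DBH, DDC and SLC18A1 were chosen after their values were seen.

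No lineage factor passed, where 0.605% of all genes did, so 0 calls in a short list says little. Of 13 adrenergic regulators 0 passed by limma, with a median of -0.01 on replicate 1 and -0.58 on replicate 2. In that list 5 of 13 had both arrays below both controls (19.7% of all genes). PHOX2A read 9.41 and 9.17 on the KDM6B siRNA arrays, against 9.85 and 10.11 on the control siRNA arrays (adjusted p = 0.0934), and GATA2 read 9.67 and 8.73 on the KDM6B siRNA arrays, against 10.02 and 10.06 on the control siRNA arrays (adjusted p = 0.195). GATA3 read 9.65 and 9.33 on the KDM6B siRNA arrays, against 9.51 and 9.50 on the control siRNA arrays, with both controls between the KDM6B siRNA arrays. MYCN, the amplified oncogene of these cells, read 11.92 and 10.78 on the KDM6B siRNA arrays, against 12.06 and 12.06 on the control siRNA arrays (difference -0.71, adjusted p = 0.332), so the first array was near the controls and the second was not. Its relative MYC was dim and read 5.09 and 5.10 on the KDM6B siRNA arrays, against 5.06 and 4.76 on the control siRNA arrays (adjusted p = 0.627). The value of 4.76 was not above background. None of 11 MYC network genes and 16 ribosome biogenesis genes passed by limma (medians 0.01 and -0.18).

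Cell surface genes held some of the largest falls. CD9, a tetraspanin that organises membrane proteins, read 8.15 and 8.39 on the KDM6B siRNA arrays, against 10.22 and 10.17 on the control siRNA arrays, which is 0.263 times the control level (difference -1.93, SE 0.13, adjusted p = 0.00375). ADGRG2, an adhesion receptor of the G protein-coupled kind, read 5.86 and 5.32 on the KDM6B siRNA arrays, against 7.95 and 7.35 on the control siRNA arrays, the largest fall among called genes (-2.06, SE 0.24, adjusted p = 0.0196). Its relative ADGRG1 read 4.24 and 3.73 on the KDM6B siRNA arrays, against 5.71 and 5.37 on the control siRNA arrays and was not above background on either KDM6B siRNA array, so it was at least 1.72-fold lower (adjusted p = 0.0224). These 3 were the calls among 30 tetraspanin, integrin and adhesion genes, where 0.492% of all genes fell. The median of that list was -0.03. PCDH19, a protocadherin, read 4.85 and 5.27 on the KDM6B siRNA arrays, against 6.58 and 6.45 on the control siRNA arrays (fall of 1.46, adjusted p = 0.0278). ADAMTS1, a secreted protease of the matrix, read 7.51 and 7.10 on the KDM6B siRNA arrays, against 8.74 and 8.66 on the control siRNA arrays (fall of 1.40, adjusted p = 0.0187). LOX, which crosslinks collagen, was the 1 call among 22 mesenchymal and matrix genes, at 4.61 and 4.83 with KDM6B siRNA, against 5.85 and 5.52 with control siRNA, with 1 KDM6B siRNA array above background.

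Neuronal and secretory genes moved in both directions, where 0.492% of all genes fell and 0.113% rose. SLITRK6, a membrane protein that promotes synapse formation, read 9.21 and 9.50 on the KDM6B siRNA arrays, against 7.37 and 7.24 on the control siRNA arrays, which is 4.14 times the control level and the largest rise among called genes (2.05, SE 0.14, adjusted p = 0.00375). LRRTM1, another leucine-rich synapse organiser, read 8.43 and 8.47 on the KDM6B siRNA arrays, against 9.42 and 9.40 on the control siRNA arrays and fell by 0.96 (adjusted p = 0.0196), and these were the 2 calls among 21 synapse genes. CACNA2D1, an auxiliary subunit of calcium channels, rose by 0.83 (9.65 and 9.41 with KDM6B siRNA, against 8.69 and 8.71 with control siRNA, adjusted p = 0.0452), 1 of 17 channel genes. Of 14 neuropeptide and granin genes GAL, which encodes galanin, read 8.47 and 8.41 on the KDM6B siRNA arrays, against 9.68 and 9.77 on the control siRNA arrays (fall of 1.29, adjusted p = 0.0111), and VGF, a secreted precursor induced by growth factors, read 6.47 and 6.47 on the KDM6B siRNA arrays, against 7.41 and 7.68 on the control siRNA arrays (fall of 1.07, adjusted p = 0.0361). OLFM1, a secreted glycoprotein of neurons, fell by 1.64 (9.55 and 8.87 with KDM6B siRNA, against 10.88 and 10.82 with control siRNA, adjusted p = 0.0224). CHRM1, a muscarinic acetylcholine receptor, read 5.51 and 4.78 on the KDM6B siRNA arrays, against 6.63 and 6.74 on the control siRNA arrays (fall of 1.55, adjusted p = 0.0357).

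Stress and growth factor response genes were among the falls, which made up 0.492% of all genes. ATF3, a transcription factor induced by stress, read 5.43 and 5.03 on the KDM6B siRNA arrays, against 6.56 and 6.69 on the control siRNA arrays (fall of 1.40, adjusted p = 0.022). IER2, an immediate early gene, read 7.42 and 7.69 on the KDM6B siRNA arrays, against 8.45 and 8.44 on the control siRNA arrays (fall of 0.89, adjusted p = 0.0485), and these were 2 of 22 immediate early genes, with a list median of -0.38. EGR1, chosen after its values were seen, read 6.07 and 7.35 on the KDM6B siRNA arrays, against 8.09 and 8.15 on the control siRNA arrays, lower on both arrays and more so on the first, without passing (adjusted p = 0.124). SPRY4, a feedback inhibitor of receptor tyrosine kinase signalling, read 7.44 and 7.15 on the KDM6B siRNA arrays, against 8.65 and 8.56 on the control siRNA arrays and fell by 1.31 (SE 0.14, adjusted p = 0.0187), the 1 call among 16 MAPK feedback and ETS genes. None of 19 receptor tyrosine kinase and neurotrophin receptor genes passed by limma.

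Other large falls lay outside the lists. RTL1, an imprinted gene derived from a retrotransposon, read 5.14 and 4.47 on the KDM6B siRNA arrays, against 6.91 and 6.61 on the control siRNA arrays, with replicate 2 not above background (difference -1.95, adjusted p = 0.0187). ASS1, which makes argininosuccinate for arginine synthesis, read 10.01 and 9.47 on the KDM6B siRNA arrays, against 11.45 and 11.43 on the control siRNA arrays (fall of 1.70, SE 0.17, adjusted p = 0.0159). S100A11, a calcium-binding protein, read 9.12 and 8.25 on the KDM6B siRNA arrays, against 10.23 and 10.11 on the control siRNA arrays (fall of 1.48, adjusted p = 0.0485). PLPP4, a lipid phosphate phosphatase, read 6.46 and 6.48 on the KDM6B siRNA arrays, against 8.03 and 7.91 on the control siRNA arrays, and its KDM6B siRNA arrays differed by 0.02 (fall of 1.50, adjusted p = 0.00523). In total 79 of the 107 called genes belonged to none of the 39 lists.

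Of the 20 rises, SLITRK6 and CACNA2D1 were the 2 that belonged to a list. Outside the lists, HBP1, a repressor of cell cycle genes, read 9.13 and 9.32 on the KDM6B siRNA arrays, against 8.36 and 8.18 on the control siRNA arrays and rose by 0.95 (SE 0.13, adjusted p = 0.0278). CCNG2, an unusual cyclin that is high in resting cells, read 7.83 and 8.30 on the KDM6B siRNA arrays, against 6.87 and 7.04 on the control siRNA arrays (rise of 1.10, SE 0.18, adjusted p = 0.0455). Both had every KDM6B siRNA array above every control. The kinase genes UHMK1 and HIPK3 rose by 1.06 and 0.96 (adjusted p = 0.0187 and 0.0299), with UHMK1 at 10.02 and 9.86 with KDM6B siRNA, against 8.88 and 8.89 with control siRNA. ZNF135, a zinc finger protein, rose by 1.16, SUSD1 by 1.01, SLC44A5, a choline transporter-like protein, by 0.95 and TTC17 by 0.94 (adjusted p from 0.0196 to 0.0383). GALC, a lysosomal galactosidase, rose by 0.87 and CYTH1, an exchange factor for ARF proteins, by 0.82. PARP8 read 5.28 and 5.43 on the KDM6B siRNA arrays, against 4.63 and 4.49 on the control siRNA arrays, where neither control was above background, and was at least 1.46-fold higher (adjusted p = 0.0413). TNFSF4, the OX40 ligand, passed as higher (4.18 and 3.92 with KDM6B siRNA, against 3.02 and 2.83 with control siRNA) but was not above background on any siRNA array, so no fold is given.

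Chromatin regulators next to KDM6B held no call, where 0.605% of all genes were called, so 0 calls in lists this short says little. Of 12 genes of the KDM6 family and its KMT2 partners 0 passed by limma (median 0.01), and of 11 PRC2 genes 0 passed (median -0.06). EZH2, the methyltransferase of PRC2, read 8.71 and 8.36 on the KDM6B siRNA arrays, against 8.79 and 8.71 on the control siRNA arrays and overlapped (adjusted p = 0.559). SUZ12, a core subunit, read 7.28 and 8.32 on the KDM6B siRNA arrays, against 8.95 and 8.68 on the control siRNA arrays, lower on both arrays and most on the first (difference -1.01, adjusted p = 0.164). EZH1, the paralog of EZH2, read 6.88 and 8.16 on the KDM6B siRNA arrays, against 6.76 and 6.71 on the control siRNA arrays, higher mainly on the second (adjusted p = 0.374). EED was not among the genes measured.

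Transfected RNA can set off innate sensing and loads the RNA interference machinery, so those genes are given as well. Both groups were transfected with siRNA, so a response that they shared would not show here. Of 26 interferon and double-stranded RNA response genes 0 passed by limma (0.605% of all genes did), with medians of -0.09 on replicate 1 and 0.00 on replicate 2. Only 16 of the 26 were above background on any siRNA array. OAS1, a sensor of double-stranded RNA, read 6.76 and 4.61 on the KDM6B siRNA arrays, against 7.52 and 7.62 on the control siRNA arrays (adjusted p = 0.171), and replicate 2 was not above background. Of 12 RNA interference genes 0 passed, and AGO2, the slicer, read 7.87 and 8.31 on the KDM6B siRNA arrays, against 8.52 and 8.52 on the control siRNA arrays (adjusted p = 0.275). Metallothioneins and zinc export genes leaned upward without a call, with both arrays above both controls for 10 of 12 (22.2% of all genes) and a median of 0.43. MT1F read 7.17 and 7.79 on the KDM6B siRNA arrays, against 6.47 and 6.54 on the control siRNA arrays (adjusted p = 0.0934). Metallothioneins are near-identical copies, so their separate levels are uncertain.

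The ATF4 targets had list medians of opposite sign on the arrays, as did several other lists. Among those were axon guidance genes (0.19 on replicate 1, -0.32 on replicate 2) and heat shock genes (-0.38 and 0.05). Of 23 ATF4 targets SHMT2, a mitochondrial enzyme of serine metabolism, fell by 0.88 (10.34 and 10.09 with KDM6B siRNA, against 11.03 and 11.15 with control siRNA, adjusted p = 0.0359), and it was lower on both arrays. The list had a median of -0.42 on replicate 1 and 0.11 on replicate 2. SLC7A11, the cystine transporter, read 5.31 and 8.73 on the KDM6B siRNA arrays, against 7.13 and 7.15 on the control siRNA arrays, which is -1.84 and 1.59 from the control mean. ASNS, asparagine synthetase, read 8.17 and 9.83 on the KDM6B siRNA arrays, against 9.38 and 9.17 on the control siRNA arrays, and CHAC1, which degrades glutathione, read 6.85 and 8.88 on the KDM6B siRNA arrays, against 7.64 and 7.84 on the control siRNA arrays. All 3 lay below the controls on the first array and above them on the second (ASNS and CHAC1 were chosen after their values were seen). Of 18 unfolded protein response genes, 14 heat shock genes, 19 p53 targets, 20 hypoxia genes and 16 cholesterol genes 0 passed by limma (0.605% of all genes did). Unfolded protein response genes had medians of -0.21 on replicate 1 and -0.29 on replicate 2, and p53 targets -0.18 and -0.05.

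**Figure D4:**
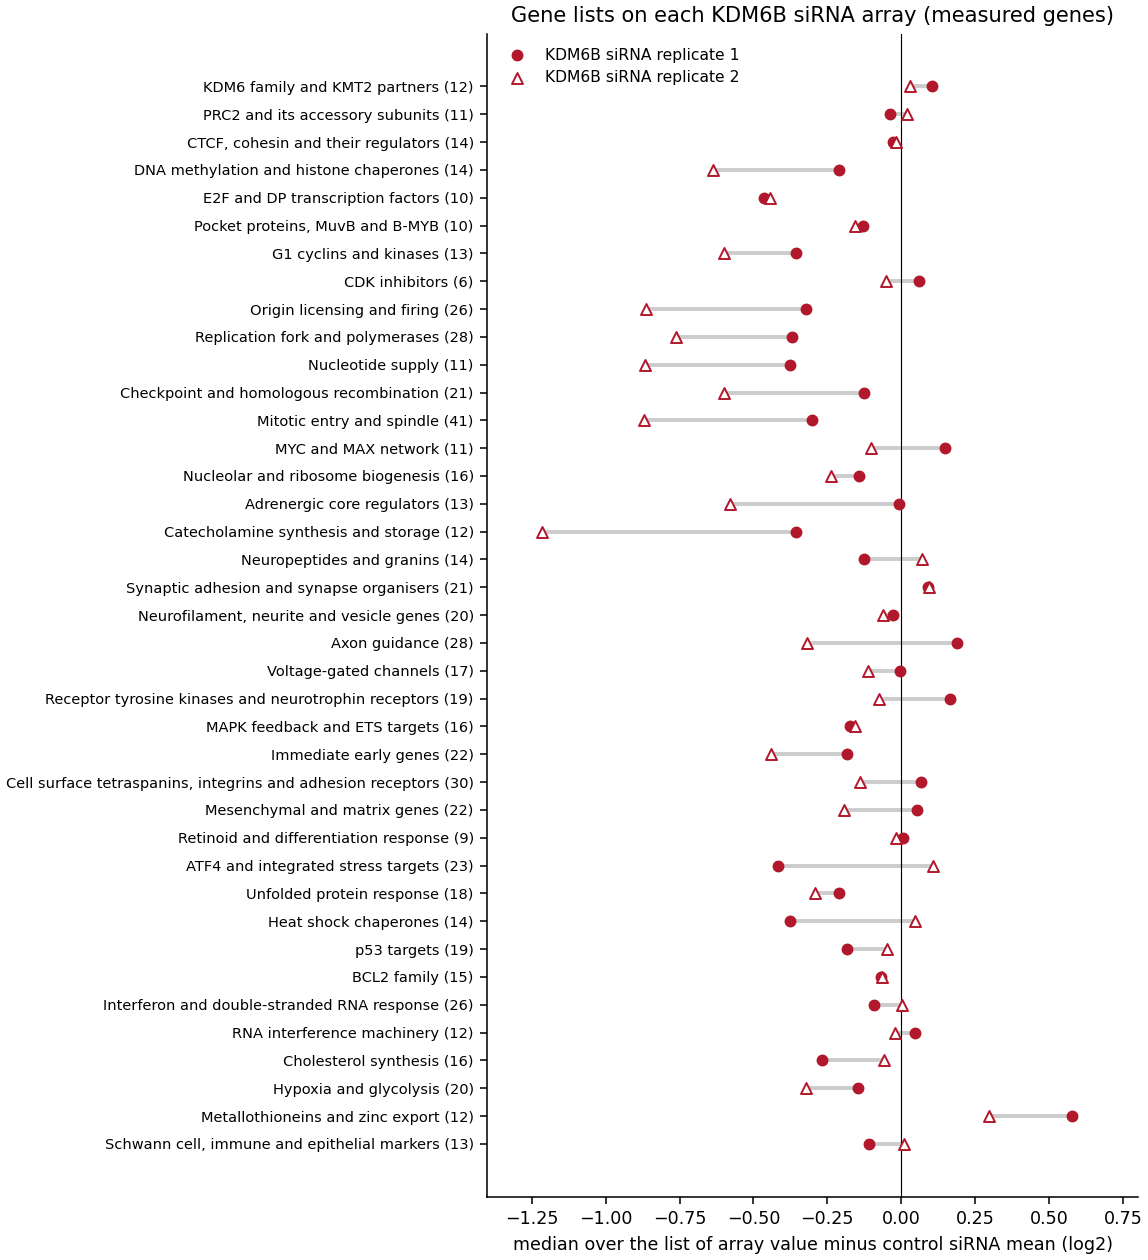
Median over each of 39 gene lists (number of measured genes in brackets) of the log2 value minus the control siRNA mean, for KDM6B siRNA replicate 1 (filled circles) and replicate 2 (open triangles), which share the same controls. Replication, mitosis and catecholamine lists lie lower on replicate 2, and E2F and DP genes lie at -0.46 and -0.44. ATF4 targets are among several lists with medians on either side of 0.

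Large differences on a single array were more frequent than on both. More than 1 log2 unit below the control mean lay 183 genes on replicate 1 (1.03%) and 572 on replicate 2 (3.23%), and more than 1 above it lay 39 and 231. On both arrays 38 genes lay that far below and 4 that far above, and 34 and 2 of these were called. These array values share their 2 controls and carry no test. Those below on both arrays that missed the call were DBH, KDM6B, TRPA1 and FAM107B, and those above were TCP11L2 and CREBRF. CREBRF, a regulator of the stress factor CREB3, read 5.92 and 6.81 on the KDM6B siRNA arrays, against 4.92 and 4.72 on the control siRNA arrays (adjusted p = 0.0577). TRPA1, FAM107B, TCP11L2 and CREBRF were named after their values were seen.

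Some genes lay far below the controls on replicate 2 and near them on replicate 1. GNL2, a nucleolar GTPase, read 9.08 and 6.06 on the KDM6B siRNA arrays, against 9.42 and 9.40 on the control siRNA arrays. CACNG4, a regulator of AMPA receptors, read 8.05 and 5.03 on the KDM6B siRNA arrays, against 8.16 and 8.25 on the control siRNA arrays. ACE, angiotensin-converting enzyme, read 8.35 and 5.42 on the KDM6B siRNA arrays, against 8.61 and 8.55 on the control siRNA arrays, and in all 3 the first array also lay below both controls, but within 0.33 of their mean. HTR3A, a serotonin-gated channel, read 7.20 and 4.34 on the KDM6B siRNA arrays, against 7.21 and 7.01 on the control siRNA arrays, where 4.34 was not above background, and RPH3A, a synaptic vesicle protein, read 9.61 and 6.82 on the KDM6B siRNA arrays, against 9.28 and 9.32 on the control siRNA arrays. Others were lower on replicate 1 alone. NCKAP1, a subunit of the WAVE actin regulator, read 6.12 and 8.79 on the KDM6B siRNA arrays, against 8.42 and 8.37 on the control siRNA arrays. SCOC, a coiled-coil protein of the Golgi and of autophagy, read 5.34 and 8.04 on the KDM6B siRNA arrays, against 7.64 and 7.53 on the control siRNA arrays. For both the second array lay above both controls. ZNF483, a zinc finger protein, read 5.42 and 8.24 on the KDM6B siRNA arrays, against 6.32 and 6.11 on the control siRNA arrays, below on the first array and far above on the second.

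In 12 genes the arrays went past 1 log2 unit in opposite directions, 9 of them up on replicate 1 and down on replicate 2. FAXDC2, a membrane hydroxylase-like protein, had the widest gap and read 9.07 and 5.12 on the KDM6B siRNA arrays, against 7.61 and 7.58 on the control siRNA arrays. The kinesin gene KIF3B read 6.20 and 8.93 on the KDM6B siRNA arrays, against 7.59 and 7.54 on the control siRNA arrays, and LRRIQ1 read 3.33 and 6.06 on the KDM6B siRNA arrays, against 4.78 and 4.57 on the control siRNA arrays, where 3.33 and 4.57 were not above background, both down on the first array and up on the second. None of the genes named here for their gap between the arrays passed with both arrays in the fit (adjusted p from 0.316 for GNL2 to 0.999 for KIF3B). A wide gap itself enlarges the spread in the test, so this largely follows from how they were chosen. KDM6B was also the lower on replicate 2, and its part in these gaps was not tested.

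The same fit compared the change after KDM6B siRNA with the change after GSK-J4 in these cells, which differ in agent, time and control. With GSK-J4 654 genes passed (3.7%). The effects differed for 163 genes (0.922%, from 17 to 2486 genes with an array left out), 28 of the 107 called genes among them, 26 called lower and 2 called higher. Of the 87 falls, 14 were also called lower with GSK-J4 (1.41% of all genes were) and 9 were called higher with it (2.29% of all genes were), and of the 20 rises 6 were also called higher. Both comparisons use the same estimate of the spread for a gene, so a gene with little spread passes more easily in both. The difference of effects also reuses the arrays that gave the 107 calls. How much of these overlaps is built in this way was not tested. HELLS was lower in both comparisons, with a log2 difference of -1.23 for KDM6B siRNA and -0.86 for GSK-J4 (adjusted p = 0.0113 and 0.00949). HBP1 was higher in both (0.95 and 1.16), as were CCNG2 (1.10 and 1.31) and TTC17 (0.94 and 1.06), and for none of these did the difference between effects pass. ASS1 read 11.94 and 11.99 with GSK-J4, against 11.04 and 11.12 with DMSO, opposite to its fall with KDM6B siRNA (difference of effects -2.59, SE 0.25, adjusted p = 0.00415). SPRY4 read 8.44 and 8.66 with GSK-J4, against 7.71 and 7.79 with DMSO (difference of effects -2.11, adjusted p = 0.00438). CD9 read 9.59 and 9.66 with GSK-J4, against 9.58 and 9.61 with DMSO, so its groups there overlapped (difference of effects -1.96, adjusted p = 0.00348).

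**Figure D5:**
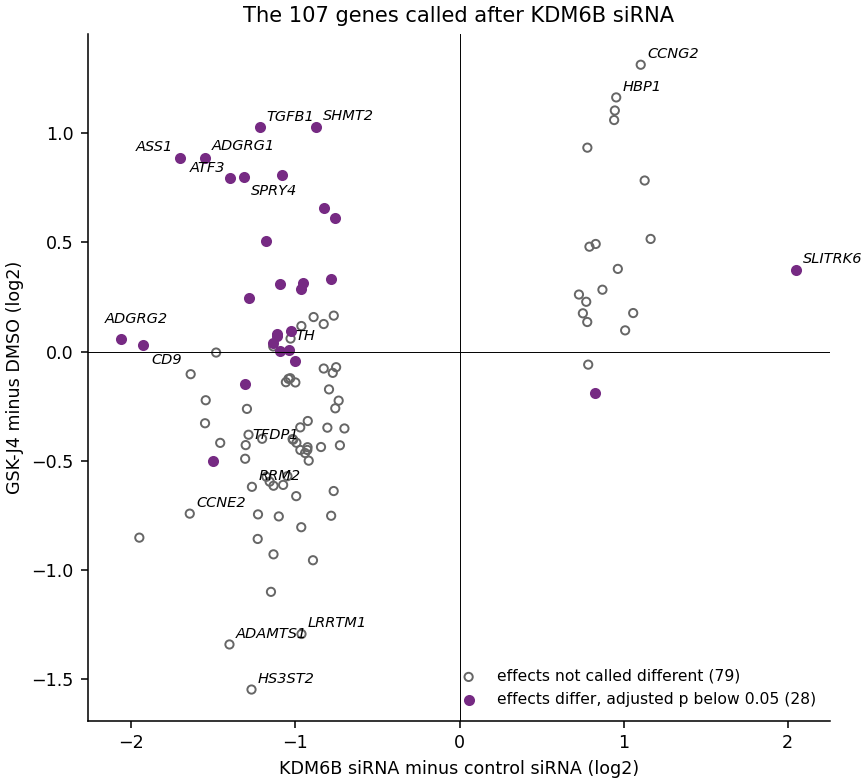
The 107 genes called after KDM6B siRNA, placed by the log2 difference of KDM6B siRNA and control siRNA (horizontal) and of GSK-J4 and DMSO (vertical), with filled points for the 28 genes whose effects differ at an adjusted p below 0.05. HBP1 and CCNG2 are high on both axes, and ASS1, ADGRG1, ATF3, SPRY4, TGFB1 and SHMT2 are low on the horizontal and high on the vertical axis.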

How the data were processed

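BE2C cells were measured on Clariom S human arrays, which read each transcript with a set of short probes. Values were used as deposited by the authors, on the log2 scale, and the submitters' processing notes name GCOS. How background was corrected and arrays were normalized and summarized was not given in the sources used here. On a common scale, a change in the RNA content of all genes cannot be seen. Of 24351 probe sets 17709 had 1 gene symbol, and 20 genes with several probe sets kept the one with the highest mean over 8 arrays, which left 17687 genes. A gene was above background on an array where it exceeded the 95th percentile of the 612 negative control probe sets. Where both arrays of a group were dim, the fold is a lower bound, with dim values raised to that percentile. Precision is limited by 2 arrays per group. Differences were fitted with limma 3.58.1 in R 4.3.3 (lmFit, eBayes, two-sided) on all 8 arrays with 1 coefficient for each of the 4 groups, leaving 4 residual and 4.18 prior degrees of freedom, and adjusted by Benjamini-Hochberg over the 17687 genes at a threshold of 0.05. The procedure was tested on simulated data with the same spread on all arrays of a gene, so that test does not cover the wider spread of the KDM6B siRNA pair. The genes, 39 gene lists and tests were chosen with earlier results of these data known. Named genes were KDM6B, KDM6A, MYCN, MYC, E2F and DP factors, CDK4, CDK6, CCND1, RB1 and PRC2 core genes, the 14 largest rises and 14 largest falls among calls with arrays apart, up to 4 called members of each list (up to 3 uncalled ones where none passed), and the 6 genes per direction with the widest gap between the KDM6B siRNA arrays. Lists are described by counts and medians, without a set test. In total 11 other settings were run and each of the 8 arrays was left out in turn. Promoter sequences are from RefSeq (GRCh38.p14).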

Additional observations from a re-analysis of the deposited data

Results flagged for a closer look

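The following results stood out because the change after KDM6B siRNA and the change after GSK-J4 differed by a test of the difference itself (limma, same fit), and no cause was tested. The test passed for 163 genes. Among called genes with a larger fall or a fall alone after KDM6B siRNA, the difference of effects on the log2 scale was -2.12 for ADGRG2 (adjusted p = 0.0346), -1.96 for CD9 (adjusted p = 0.00348), -2.59 for ASS1 (adjusted p = 0.00415) and -2.44 for ADGRG1 (adjusted p = 0.00885). ADGRG1 was above background on 0 of 2 KDM6B siRNA arrays, and LOX on 1 of 2, so the sizes of their differences rest on dim values. It was -2.19 for ATF3 (adjusted p = 0.00885), -2.11 for SPRY4 (adjusted p = 0.00438) and -1.91 for SHMT2 (adjusted p = 0.00438), and these, ASS1 and ADGRG1 were called higher with GSK-J4. It was -0.999 for PLPP4 (adjusted p = 0.0346), -1.05 for TH (adjusted p = 0.0419) and -1.25 for LOX (adjusted p = 0.0419). In the other direction it was 1.68 for SLITRK6 (adjusted p = 0.0113) and 1.01 for CYTH1 (adjusted p = 0.0385). The control groups themselves differed for some of these genes. PLPP4 read 8.03 and 7.91 with control siRNA, against 6.48 and 6.50 with DMSO. TH read 8.18 and 8.31, against 9.19 and 9.11, and SLITRK6 7.37 and 7.24, against 7.98 and 8.14. SHMT2 was alike in both (11.03 and 11.15, against 11.11 and 11.11). The part of these gaps in the differences of effects was not tested.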

How the results depend on the processing

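All 107 called genes kept their direction in every setting and with every array left out (106 of 106 where dim genes were filtered, since 1 was removed). For left-out arrays and other estimates of the spread this was fixed, since both KDM6B siRNA arrays of each called gene lay beyond both controls. The number of calls depends on the arrays and on the estimate of the spread. The 20 higher and 87 lower genes, 28 of them in the lists, became 0 and 0 (0 in lists) with the 4 siRNA arrays alone and 0 and 0 (0 in lists) with the methods' t-test after Benjamini-Hochberg. They became 2 and 25 (11 in lists) with array weights, which gave the KDM6B siRNA arrays 0.316 and the control siRNA arrays 1.73. The methods' t-test without adjustment gave 686 and 571 (77 in lists), 96 of the main calls among them. Same-numbered arrays did not deviate together (correlations from -0.04 to 0.09). With so few arrays per group this cannot exclude that the numbers pair the samples, and the labels do not say. The replicate block gave 5 higher and 30 lower (13 in lists), 33 of them main calls. With quantile normalization, median centring, an intensity trend, robust spread, dim genes filtered and probe sets averaged, counts stayed within 1.5 times, from 21 to 28 higher and 67 to 108 lower. Leaving out arrays gave from 0 to 1694 higher, 0 to 1824 lower and 0 to 290 in lists. Without KDM6B siRNA replicate 1 there were 3518 calls and without replicate 2 there were 966, all 107 in both, and the lone array is then assumed to vary like the other groups. Without either control siRNA array there were 0 (1427 and 1441 at an unadjusted p below 0.05), and without any single GSK-J4 or DMSO array 3. The 163 genes with different effects ranged from 17 to 2486 with arrays left out. KDM6B differed by -2.56 to -1.09 with arrays left out. Over all settings its adjusted p ranged up to 0.765. Genes with opposite arrays had opposite signs with either array left out, since the difference then rests on the other array alone. Without KDM6B siRNA replicate 1 and without replicate 2, SLC7A11 was at 1.59 and -1.84, ZNF483 at 2.02 and -0.80, KIF3B at 1.37 and -1.36, LRRIQ1 at 1.39 and -1.34, and FAXDC2 at -2.47 and 1.48. The LRRIQ1 values rest on arrays not above background and give no measured size. The 38 genes below and 4 above by more than 1 on both arrays became 36 and 8 or 47 and 5 without control siRNA replicate 1 or 2, alternatives chosen after seeing the data. Of single genes' values, 688 stayed on their side of the threshold in other settings and 165 lost the call, and with arrays left out 306 stayed, 276 lost the call, 21 gained it, 16 shifted and 5 turned sign. The cause of these changes was not tested beyond the arrays named.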
